A study of Mus musculus with 9 samples.

Results

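Heat shock proteins and other chaperones were followed here as a group of 55 genes among the 55471 gene identifiers of the count files, in OT-I CD8+ T cells recovered from infected mice. The members were chosen by gene name: Hsp70, Hsp90 and small heat shock proteins, J-domain proteins, cochaperones, the TRiC chaperonin and the heat shock factors, with cytosolic inducible, endoplasmic reticulum (ER) and mitochondrial chaperones kept apart. Of the 55, 53 passed the filter on low counts, as did 14918 genes in all. Hspb1 and Hspa12b, a small heat shock protein and a divergent Hsp70, did not, with 3 to 17 and 0 to 9 counts per library.

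The OT-I cells carry a transgenic T cell receptor for an ovalbumin peptide. Control cells (labelled Bdh1-WT;shCtrl, 4 libraries) were Bdh1 wild type and carried a hairpin against firefly luciferase. DKO cells (labelled Bdh1-KO;shOxct1, 5 libraries) were Bdh1 knockout and carried a hairpin against Oxct1, so that 1 gene was knocked out and the other knocked down. The labels do not say which part of Bdh1 is missing. BDH1 and OXCT1 are enzymes of mitochondrial ketone body use. Both kinds of cells were activated in culture with antibodies to CD3 and CD28 and with IL-2, transduced, sorted for the Ametrine reporter and moved into CD45.1 C57BL/6 mice. The hosts were naive mice, for which the labels name no depletion of their own lymphocytes. They were infected 1 day later with Listeria expressing ovalbumin (LmOVA), and CD45.2 Ametrine+ cells were sorted on day 7. All 9 libraries thus share the culture, a hairpin vector, the transfer and the infection, and no library comes from uninfected mice. Nothing in the labels says whether the replicates came from separate animals, so the p-values measure only the spread between these samples, which may be technical.

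Chaperones bind unfolded or partly folded proteins and help them reach their final shape. In the cytosol, J-domain proteins bring clients to Hsp70 and stimulate its ATPase, and cochaperones such as STIP1 pass clients on to Hsp90. Unfolded protein in the cytosol releases the factor HSF1, which binds heat shock elements (inverted repeats of GAA and TTC) in the promoters of inducible chaperones. Unfolded protein in the ER acts through other factors, which bind the ER stress element in the promoters of ER chaperones, and mitochondria have chaperones of their own. Activated T cells make much protein during clonal expansion, and both cytosolic and ER chaperones are abundant in them.

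Matches to these elements can be read in promoters of several classes, and the short stretches below are shown because they carry them. They come from RefSeq promoter windows of GRCm38.p6 that run from 250 bases before to 50 bases after each start, and 45 of the 55 members had one. A heat shock element was searched as GAANNTTC or TTCNNGAA, which each read the same on both strands, and the matched letters are in capitals. The Hspa1a element at chr17:34972248-34972265 (minus strand) and the Hspa1b element at chr17:34959330-34959347 (minus strand) lie in windows of 300 bases that are the same at 296 positions and differ at 4. Dnaja1 has its element at chr4:40722339-40722356 (plus strand) and Fkbp4 at chr6:128438795-128438812 (minus strand), and both have 1 match. Hsph1 has 3 matches, 2 of them overlapping at chr5:149636283-149636305 (minus strand), which are printed, and 1 at chr5:149636357-149636374. Chordc1 has 5 matches, 4 of them overlapping at chr9:18292260-18292288 (plus strand), which are printed, and 1 at chr9:18292295-18292312. Hspd1 and Hspe1, the mitochondrial Hsp60 and Hsp10, lie head to head and share 3 overlapping matches at chr1:55088054-55088081, printed for the strand of Hspd1 (minus).
Hspa1a: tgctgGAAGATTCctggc
Hspa1b: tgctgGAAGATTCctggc
Dnaja1: ctctaGAAAATTCtacga
Fkbp4: ctctaGAAAGTTCtccgc
Hsph1: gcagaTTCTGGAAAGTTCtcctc
Chordc1: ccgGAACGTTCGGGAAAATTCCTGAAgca
Hspd1: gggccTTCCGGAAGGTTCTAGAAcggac
A match was present in the windows of 17 of the 45 members (37.8%), against 17.0% of all 27025 genes with a window. Of the cytosolic inducible members, 8 of 10 held one, and of the ER members 0 of 7. In the other classes the counts were 1 of 5 constitutive, 2 of 4 mitochondrial, 2 of 6 J-domain, 1 of 5 cochaperone and 3 of 7 TRiC members, and 0 of 1 heat shock factor. A longer form with 3 units, GAANNTTCNNGAA or TTCNNGAANNTTC, which overlaps the shorter form by construction, was present in 5 of the 45 (11.1%), against 0.662% of all genes. It was found in 2 of 10 inducible, 2 of 4 mitochondrial and 1 of 6 J-domain members. The differences between classes were not tested. Dnajb1, Hspa4l, Hspa2 and Stip1 had no match, which says only that these letters are not in those windows.

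The ER stress element, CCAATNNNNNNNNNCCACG on either strand, was present in 3 of the 45 members (6.67%), against 0.137% of all genes. All 3 are ER members: Hspa5 at chr2:34772020-34772048 (plus strand), Hsp90b1 at chr10:86705633-86705661 and again at chr10:86705528-86705556 (minus strand), and Dnajc3 at chr14:118937822-118937850 (plus strand). The first Hsp90b1 match is printed.
Hspa5: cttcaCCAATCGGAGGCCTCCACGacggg
Hsp90b1: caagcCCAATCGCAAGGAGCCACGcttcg
Dnajc3: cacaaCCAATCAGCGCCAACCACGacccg

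The libraries held 45205993 to 59853080 counts in genes. Control replicate 1 stood apart on the first principal component and control replicate 3 on the second. In control replicate 1, 67.0% of all counts were in genes and 16.7% were unmapped. The other libraries had 71.8 to 74.0% and 10.3 to 12.3%. Expression is given as CPM, a gene's counts scaled to library size, with TMM factors of 0.987 to 1.03. The mean of Oxct1 was 63.2 ± 5.73 CPM in the 4 control and 5.16 ± 0.370 in the 5 DKO libraries (SD), with an edgeR adjusted p of 4.58e-09. Bdh1 had 30.5 ± 4.16 and 10.6 ± 1.24 CPM, with an edgeR adjusted p of 1.36e-04. All 8 CD8 T cell markers were above 1 CPM, and their summed level was 9211 to 12325 CPM in control and 8979 to 9667 CPM in DKO. Of 9 lists of marker or state genes, 3 differed in summed CPM after Benjamini-Hochberg adjustment over the lists (exact permutation test, two-sided). Immediate early genes ranged from 1375 to 1618 CPM in control and from 1663 to 1959 in DKO (adjusted p 0.0357), and proliferation genes from 522.1 to 642.1 and from 744.7 to 1396 CPM (adjusted p 0.0476). The myeloid list, with 9 of 12 genes above 1 CPM, ranged from 172.9 to 206.6 CPM in control and from 119.8 to 129.2 in DKO (adjusted p 0.0357). Its largest gene was Ctss. The other 6 lists had adjusted p of 0.0714 to 0.873. With any 1 library left out, the 3 lists above had adjusted p of 0.0643 to 0.107. Fewer libraries raise the smallest p this test can give, so those values do not show that a difference rests on 1 library. Of the B cell list, 3 of 12 genes were above 1 CPM and Pax5 had 0 counts. The part of these differences in the chaperone results was not tested, and in bulk samples fewer cells of a type and less RNA per cell cannot be told apart.

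Most chaperone genes differed little between DKO and control cells. At an edgeR p under 0.05 after Benjamini-Hochberg adjustment over all 14918 genes, 3 of the 53 tested members passed. Hspa2 was higher in DKO, and Dnaja1 and Hsf4 were lower. That is 5.66% of the members, where 2.83% of all tested genes passed: 1.32% higher and 1.51% lower. At an unadjusted p under 0.05 there were 11 members (20.8%), 8 higher and 3 lower, against 16.0% of all genes. For 3 members (5.66%), Dnajb1, Hspa2 and Hsf4, the ranges of the groups in CPM were apart, against 8.71% of all genes. With 3 members in each count, these shares set nothing apart as particular to chaperones.

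The sign of the median log2 fold change varied between the classes, which were set with earlier results of these data known. Among all genes tested the log2 fold changes (DKO minus control, so that positive is higher in DKO) had a median of -0.01, with 7246 above and 7672 below 0, and among the 53 members they had a median of 0.05, with 34 above and 19 below 0. The median was 0.31 for the cytosolic inducible members (9 of 10 above 0), 0.24 for the cochaperones (3 of 5), 0.21 for the constitutive Hsp70, Hsp90 and small Hsp members (6 of 6) and 0.08 for TRiC (8 of 8). It was -0.04 for the ER members (2 of 8 above 0), -0.03 for the mitochondrial members (2 of 5) and -0.08 for the cytosolic J-domain proteins (2 of 8). The TRiC count includes Cct8 at 0.01 and Tcp1 at 0.0004, and Tcp1 changed sign in 6 of the alternative fits. Members of a class share part of their spread between libraries, as described below, so these counts are not counts of independent measures. The differences between classes were not tested. DESeq2 passed 6 of the 53 members, adding Dnajb1, Hspa4l and Stip1, but it also passed more of all genes, 6.96%. Limma-voom passed the same 3 members as edgeR and 6.68% of all genes.

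**Figure D1:**
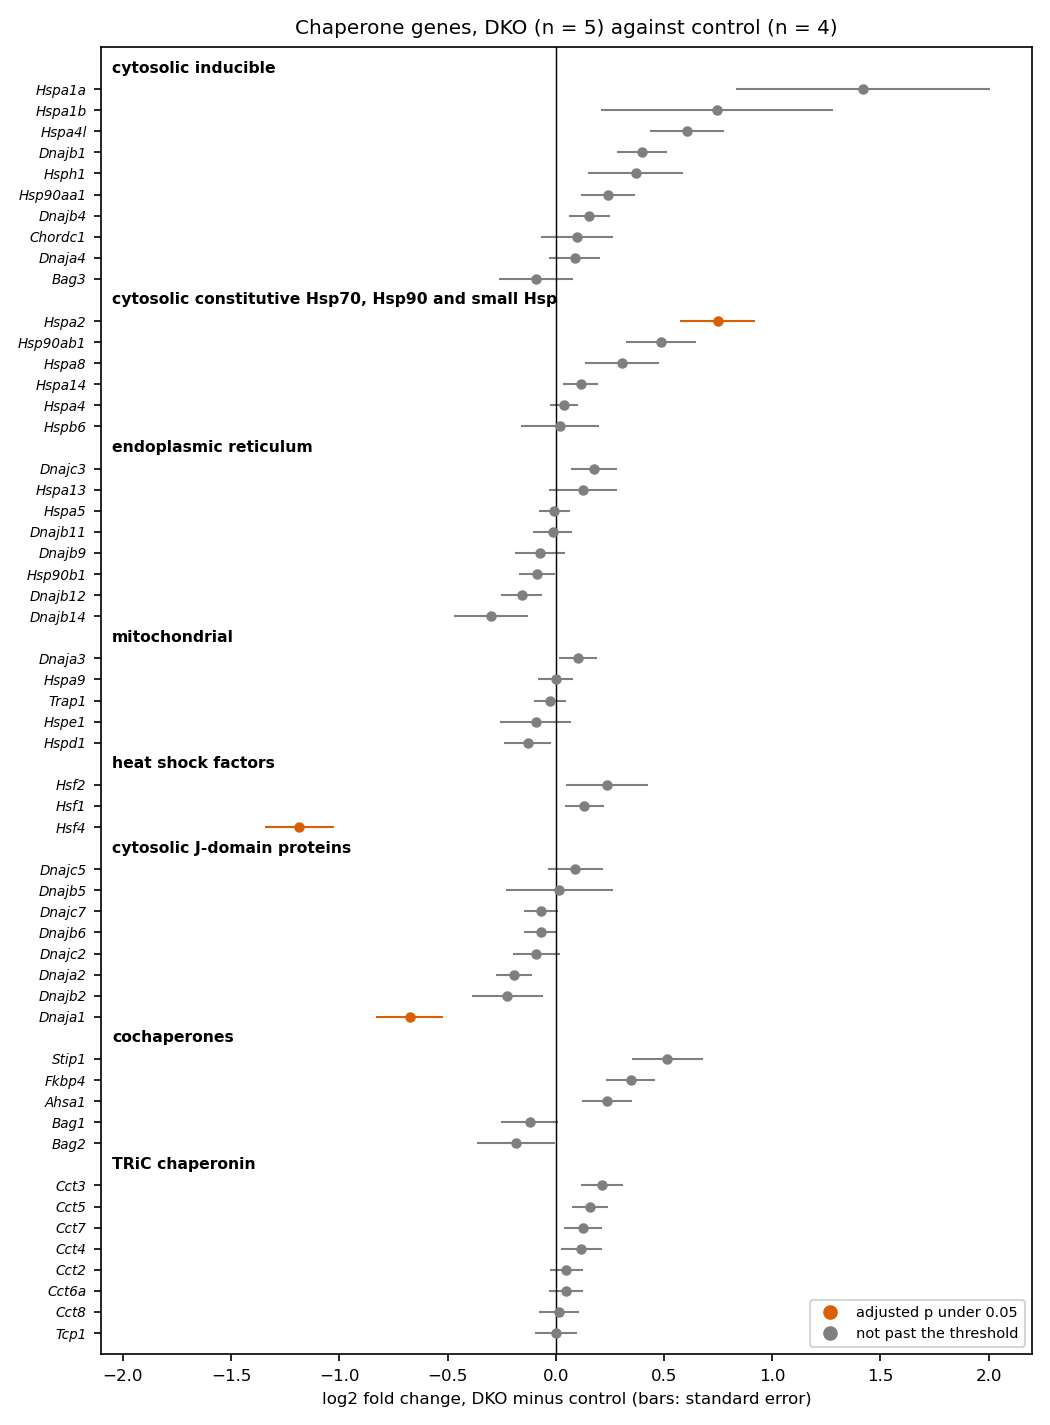
Log2 fold change (x axis, DKO minus control) of each tested member, grouped by class, with standard errors as bars. Most cytosolic inducible, constitutive, cochaperone and TRiC genes lie at or right of 0 and most ER and J-domain genes left of it, and Hspa2, Dnaja1 and Hsf4 passed the edgeR threshold.

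Per unit of exon length, as TPM (scaled to a gene's merged exons and to library size), the most abundant member in control cells was Hsp90ab1. This constitutive cytosolic Hsp90 was at 747.4 ± 144 (SD, n = 4). Bag1, a nucleotide exchange factor for Hsp70, followed at 607.2 ± 113, and Hspa8, the constitutive cytosolic Hsp70, at 559.3 ± 118. The intervals of 1 SD around these 3 means overlapped. Their order also depends on the length used, since in CPM the control mean of Hspa8 (755.6) was above that of Hsp90ab1 (704.3). The Bag1 mean was raised by control replicate 1, at 358.0 CPM beside 223.3 to 237.3 in the other control libraries. Hspa5, the ER Hsp70 also known as BiP, was at 403.4 ± 21.6 TPM. Of the tested members the lowest were Hspa1a at 0.423 ± 0.311 TPM and Hsf2 at 0.641 ± 0.109. The constitutive Hsp70 thus stood far above the inducible one in these cells, since Hspa1b, the more abundant of its copies, had a mean of 9.66 TPM in control and 16.9 in DKO. Levels of Hspa1a, Hspa1b, Hspb1, Hsp90aa1, Dnaja4, Hspd1 and Hspa8, and their fold changes, are uncertain, because 39.4 to 66.3% of their 50-base words also occur in other genes' transcripts and such reads can be lost or misplaced in counting. Among the tested members, the summed strand columns gave 2.35 times the unstranded counts for Hspa1a and 2.13 times for Dnaja4. They gave about 1.5 times for Hsp90b1, Tcp1 and Dnajc7. Summed and unstranded counts differ where genes overlap on opposite strands.

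Of the 10 cytosolic inducible chaperones tested, 9 had a positive log2 fold change and 3 reached an unadjusted edgeR p under 0.05. Of all tested genes, 16.0% had such a p. At the adjusted threshold 0 passed in edgeR, 2 in DESeq2 and 0 in limma-voom, where 2.83%, 6.96% and 6.68% of all tested genes did. Dnajb1 encodes the main stress-inducible Hsp40, the J-domain partner of inducible Hsp70. Its CPM in control replicates 1 to 4 were 201.8, 225.0, 239.5 and 169.4, and in DKO replicates 1 to 5 they were 321.9, 289.0, 248.8, 268.7 and 247.5. Every DKO library was above every control library. The log2 fold change was 0.40 (SE 0.12), with an adjusted p of 0.102 in edgeR and 0.0299 in DESeq2.

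Hspa4l, an Hsp110-type partner of Hsp70, was at 29.9, 49.4, 53.5 and 33.0 CPM in control and at 70.7, 67.7, 53.0, 64.7 and 59.2 in DKO. Only control replicate 3 reached into the DKO range. Its log2 fold change was 0.61 (SE 0.17), with an edgeR adjusted p of 0.0957. Without control replicate 3 it passed, at 0.75 and an edgeR adjusted p of 0.0464, and without the other libraries in turn it did not. Hsph1, the main Hsp110 and a nucleotide exchange factor, was at 211.4, 297.2, 380.1 and 182.3 CPM in control and at 418.3, 432.7, 250.5, 332.7 and 294.1 in DKO. The groups overlapped widely, and the log2 fold change of 0.37 (SE 0.22) had an edgeR adjusted p of 0.453. It was 0.22 without control replicate 4 and 0.59 without control replicate 3.

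Hsp90aa1, the inducible cytosolic Hsp90, was at 153.3, 149.7, 165.7 and 122.4 CPM in control and at 187.3, 194.1, 135.7, 196.2 and 161.0 in DKO. DKO replicates 3 and 5 fell within the control range. The log2 fold change was 0.24 (SE 0.12), with an edgeR adjusted p of 0.375. Dnajb4 (0.15), Dnaja4 (0.09), Chordc1 (0.10) and Bag3 (-0.09) had smaller log2 fold changes, with edgeR adjusted p between 0.470 and 0.837.

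Hspa1a and Hspa1b, the neighbouring copies of inducible Hsp70 whose element is printed above, had the widest spread, relative to their means, among the tested inducible members. Hspa1b was at 13.6, 13.2, 6.02 and 1.83 CPM in control and at 21.5, 11.01, 5.44, 10.9 and 23.8 in DKO. Control replicate 4 was the lowest library of all, and DKO replicate 3 lay below 3 of the control libraries. Hspa1a had 32, 38, 8 and 6 counts in control and 78, 41, 21, 44 and 89 in DKO. The log2 fold changes were 1.42 (SE 0.59) for Hspa1a and 0.75 (SE 0.54) for Hspa1b, with edgeR adjusted p of 0.263 and 0.541. That of Hspa1b was 0.41 without control replicate 4 and 1.03 without control replicate 1 or 2, and 0.49 without DKO replicate 5.

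Since 58.8% of the 50-base words of Hspa1a occur in Hspa1b as well, the copies were also summed. The sum was 14.2, 13.9, 6.19 and 1.93 CPM in control and 23.0, 11.7, 5.89, 11.7 and 25.7 in DKO. The groups overlapped, with control replicates 1 and 2 above DKO replicates 2, 3 and 4. The means of 9.06 ± 6.02 (SD, n = 4) and 15.6 ± 8.39 (SD, n = 5) differed by less than the spread within DKO (exact permutation test, two-sided, p = 0.262). Fitted as 1 gene, the sum had a log2 fold change of 0.78 (SE 0.54) and an edgeR adjusted p of 0.521. The log2 ratio of the means was 0.45 without control replicate 4 and 1.09 without control replicate 1.

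**Figure D2:**
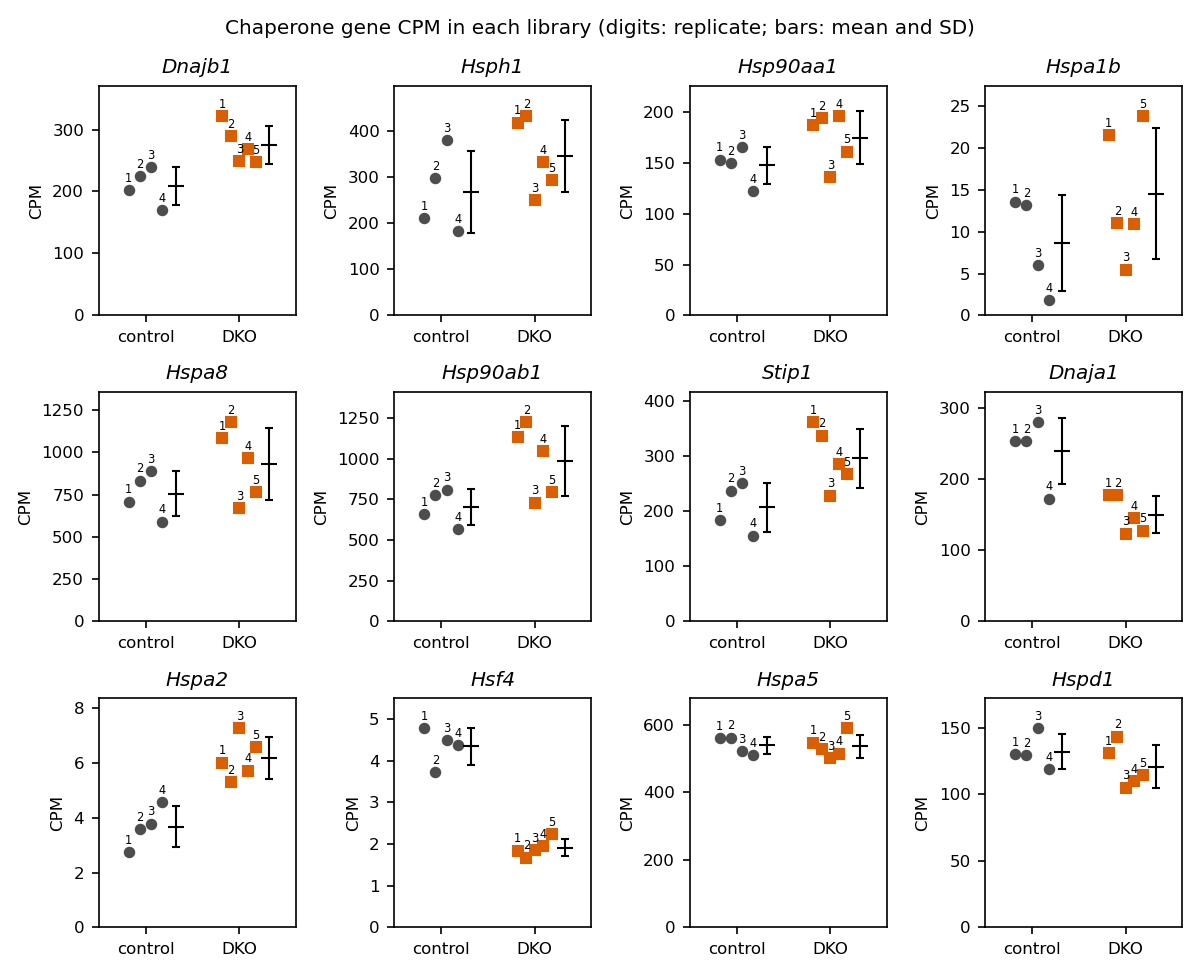
CPM (y axis, from 0) of 12 chaperone genes in each library, with control left and DKO right, the replicate number at each point, and bars for the mean and SD. The groups do not overlap for Dnajb1, Hspa2 and Hsf4, and Dnaja1 is lower in DKO except that control replicate 4 lies just under DKO replicates 1 and 2.

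All 6 tested members of the constitutive class had a positive log2 fold change, and 1 passed. Among all 14918 tested genes, 7246 had a positive log2 fold change and 2.83% passed in edgeR. A count of 1 among 6 genes does not set this class apart. Hspa2 (ENSMUSG00000059970.7, chr12:76404176-76406938, plus strand) encodes an Hsp70 best known from male germ cells. It was at 2.74, 3.59, 3.78 and 4.57 CPM in control and at 6.01, 5.30, 7.27, 5.71 and 6.58 in DKO. All DKO libraries were above all control libraries, at 133 to 260 counts in control and 293 to 346 in DKO. The means were 3.67 ± 0.751 CPM (SD, n = 4) and 6.18 ± 0.771 (SD, n = 5), for a log2 fold change of 0.75 (SE 0.17) with an edgeR adjusted p of 0.0431. Hspa2 no longer passed without control replicate 2 or 3 or without any 1 of the DKO replicates (edgeR adjusted p 0.0593 to 0.119), nor without a filter on low counts (0.0612). Of the 10 other tested genes within 500000 bases of it, 0 passed in edgeR (1 with an unadjusted p under 0.05). The shares of all tested genes were 2.83% and 16.0%, so 0 of 10 does not show a change limited to Hspa2.

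The abundant constitutive members moved less. Hsp90ab1 was at 660.0, 777.6, 810.5 and 569.0 CPM in control and at 1133, 1227, 730.9, 1048 and 793.8 in DKO. DKO replicates 1, 2 and 4 were above all control libraries, and replicates 3 and 5 lay within their range. The log2 fold change was 0.49 (SE 0.16), with an edgeR adjusted p of 0.157. Hspa8 had the same order among the DKO libraries, at 1086, 1181, 672.1, 967.5 and 763.4 CPM, beside 708.9, 833.9, 889.0 and 590.5 in control. Its log2 fold change was 0.31 (SE 0.17), with an edgeR adjusted p of 0.418. Hspa4, another Hsp110, was at 155.9 to 160.8 CPM in control and 158.7 to 165.6 in DKO, a difference of 0.04 on the log2 scale. Hspa14, an Hsp70 of the ribosome, and Hspb6, a small heat shock protein, had log2 fold changes of 0.11 and 0.02.

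Of the 8 cytosolic J-domain proteins, 2 had a positive and 6 a negative log2 fold change, and 1 passed. Among all 14918 tested genes, 7672 had a negative log2 fold change and 2.83% passed in edgeR. A count of 1 among 8 genes does not set this class apart. Dnaja1 (ENSMUSG00000028410.13, chr4:40722150-40737149, plus strand), a farnesylated Hsp40 that works with constitutive Hsp70, was at 253.3, 253.7, 280.5 and 172.8 CPM in control and at 177.1, 177.8, 123.2, 145.6 and 127.8 in DKO. Control replicate 4 lay within the DKO range and the other control libraries above it. The mean fell from 240.1 ± 46.6 (SD, n = 4) to 150.3 ± 26.2 (SD, n = 5), or 62.6% of the control level. This is -0.68 on the log2 scale (SE 0.15), with an edgeR adjusted p of 0.0407. The call was lost without control replicate 2 or 3 or without DKO replicate 1, 3, 4 or 5 (edgeR adjusted p 0.0610 to 0.107).

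Dnaja1 overlaps Smu1 on the other strand, and counting did not use strand, and the part of this overlap in the result was not tested. Smu1 was at a mean of 218.4 CPM, with a log2 fold change of 0.00 (edgeR adjusted p 0.993). The summed strand columns gave 1.05 times the unstranded counts of Dnaja1. Fitted on those columns, Dnaja1 had a log2 fold change of -0.65 (SE 0.15) and an edgeR adjusted p of 0.0417. It also overlaps Mir207, and 20.6% of its 50-base words occur in other genes' transcripts. Of the 15 other tested genes within 500000 bases, 0 passed in edgeR (1 with an unadjusted p under 0.05). The shares of all tested genes were 2.83% and 16.0%, so 0 of 15 does not show a change limited to Dnaja1.

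The log2 fold change of Dnaja1 was negative, and those of Hsp90ab1, Hspa8 and Dnajb1 were positive but short of the edgeR threshold. The CPM of Dnaja1 divided by that of Hsp90ab1 in the same library was 0.304 to 0.384 in control (mean 0.340 ± 0.0339, SD, n = 4) and 0.139 to 0.169 in DKO (0.154 ± 0.0120, SD, n = 5). Divided by Hspa8 it was 0.293 to 0.357 and 0.151 to 0.183, and divided by Dnajb1 it was 1.02 to 1.26 and 0.495 to 0.615. None of these ratios overlapped between the groups, although the CPM of Dnaja1, Hsp90ab1 and Hspa8 each did. The ratios were chosen after their values were seen and carry no test. The ratios Stip1 to Hsp90ab1 (means 0.291 and 0.302), Hspe1 to Hspd1 (0.271 and 0.277) and Hspa5 to Hsp90b1 (1.79 and 1.89), chosen in the same way, overlapped. Both genes of each of those pairs had close log2 fold changes: 0.52 and 0.49, -0.09 and -0.13, and -0.01 and -0.09. The means of these ratios thus largely restate the fold changes of the single genes. Whether the ranges overlap also depends on the spread between libraries that 2 genes share, as described below. Its part in the separation of the Dnaja1 ratios was not tested.

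**Figure D3:**
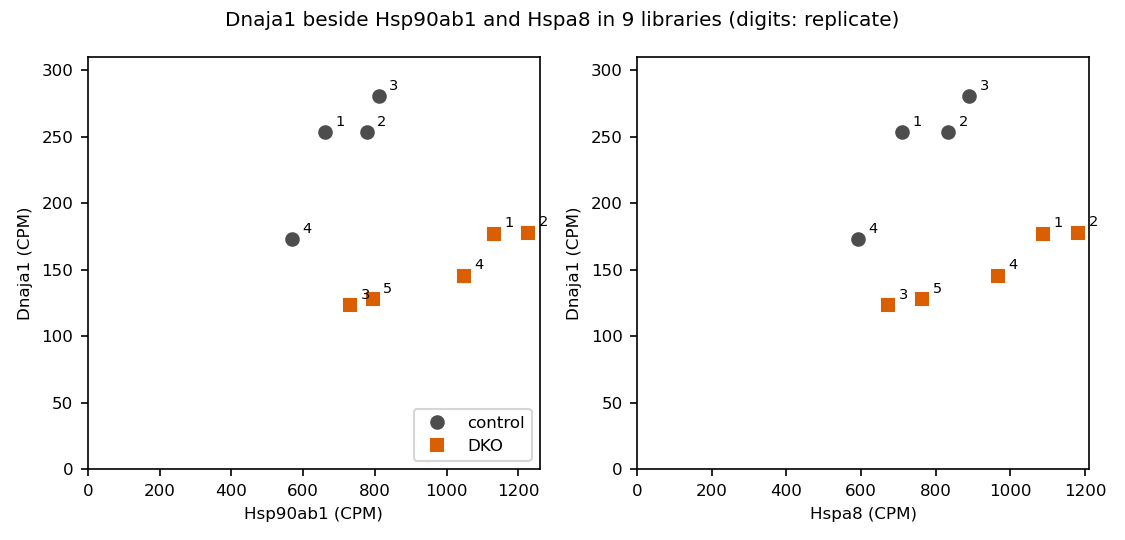
Dnaja1 CPM (y axis) against Hsp90ab1 CPM (left) and Hspa8 CPM (right) in the 9 libraries, with the replicate number at each point. For their level of Hsp90ab1 or Hspa8 the DKO libraries have less Dnaja1 than the control libraries, with Dnaja1 to Hsp90ab1 ratios of 0.139 to 0.169 against 0.304 to 0.384.

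Dnaja2, a J-domain protein of the same type as Dnaja1, had a log2 fold change of -0.19, with an edgeR p of 0.0375 before and 0.276 after adjustment. The remaining J-domain proteins lay between -0.22 (Dnajb2) and 0.09 (Dnajc5, which works at synaptic and secretory vesicles).

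Among the 5 cochaperones, 3 that work with Hsp90 had positive log2 fold changes and the 2 BAG proteins negative ones. At the adjusted threshold 0 passed in edgeR, 1 in DESeq2 and 0 in limma-voom, and 2 had an unadjusted edgeR p under 0.05. The shares of all tested genes were 2.83%, 6.96%, 6.68% and 16.0%. Stip1, also called HOP, links Hsp70 to Hsp90. It was at 183.6, 236.9, 250.2 and 155.6 CPM in control and at 361.3, 336.1, 227.6, 284.4 and 266.7 in DKO. DKO replicate 3 alone fell within the control range. The log2 fold change was 0.52 (SE 0.16), with an edgeR p of 0.0088 before and 0.135 after adjustment.

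Fkbp4, an Hsp90-bound prolyl isomerase, was at 247.8, 253.1, 240.4 and 193.2 CPM in control and at 324.9, 340.9, 247.8, 299.9 and 271.0 in DKO. Again only DKO replicate 3 reached the control range. The log2 fold change was 0.35 (SE 0.11), with an edgeR adjusted p of 0.147. Ahsa1, which activates the Hsp90 ATPase, had 0.24, and Bag1 and Bag2 had -0.12 and -0.18 (edgeR adjusted p 0.345 to 0.704).

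The heat shock factors did not move together. Hsf1, the main activator of the heat shock response, was at 114.0, 139.9, 127.3 and 117.0 CPM in control and at 152.2, 132.9, 139.1, 135.5 and 122.1 in DKO. The groups overlapped, and the log2 fold change of 0.13 (SE 0.09) had an edgeR adjusted p of 0.522. Hsf2 was low in both groups, at 1.93 ± 0.257 CPM (SD, n = 4) and 2.28 ± 0.347 (SD, n = 5), for a log2 fold change of 0.24 (SE 0.19) and an edgeR adjusted p of 0.589.

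Hsf4 had the largest fall among the members. This heat shock factor (ENSMUSG00000033249.10, chr8:105269801-105275845, plus strand) is best known from the eye lens. It was at 4.79, 3.73, 4.49 and 4.38 CPM in control and at 1.84, 1.68, 1.85, 1.95 and 2.24 in DKO. The groups lay far apart, with 203 to 249 counts in each control library and 88 to 106 in each DKO library. The mean fell from 4.35 ± 0.445 CPM (SD, n = 4) to 1.91 ± 0.210 (SD, n = 5), or 44.0% of the control level. This is -1.18 on the log2 scale (SE 0.16), with an edgeR adjusted p of 0.00361. Leaving out any 1 library kept the call (edgeR adjusted p at most 0.0166). Of the 31 other tested genes within 500000 bases, 0 passed in edgeR (6 with an unadjusted p under 0.05). The shares of all tested genes were 2.83% and 16.0%, so 0 of 31 does not show a change limited to Hsf4.

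None of the 8 ER chaperones passed, and 0 reached an unadjusted p under 0.05 in edgeR. DESeq2 and limma-voom also passed 0 of them. Of all tested genes, 2.83% passed in edgeR and 16.0% had an unadjusted p under 0.05. Counts of 0 among 8 genes thus do not set this class apart. Hspa5, which carries the ER stress element printed above, was at 559.6, 561.5, 522.2 and 509.8 CPM in control and at 546.2, 528.1, 501.2, 513.8 and 590.0 in DKO. The libraries of the groups were interleaved, and the means of 538.3 ± 26.2 (SD, n = 4) and 535.8 ± 34.6 (SD, n = 5) gave a log2 fold change of -0.01 (SE 0.07) and an edgeR adjusted p of 0.977. Hsp90b1, the ER Hsp90 also called GRP94, was at 288.7, 304.6, 339.2 and 277.8 CPM in control and at 277.1, 311.3, 262.5, 297.7 and 277.3 in DKO. Its log2 fold change was -0.09, with an edgeR adjusted p of 0.666. The other ER members, Hspa13 and the J-domain proteins Dnajb9, Dnajb11, Dnajb12, Dnajb14 and Dnajc3, lay between -0.30 (Dnajb14) and 0.18 (Dnajc3), with edgeR adjusted p of 0.427 to 0.957.

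The 5 mitochondrial chaperones likewise had 0 members past the threshold in edgeR, DESeq2 and limma-voom, and 0 with an unadjusted p under 0.05 in edgeR. With 2.83% and 16.0% of all tested genes doing so in edgeR, counts of 0 among 5 do not set this class apart either. Hspa9, the mitochondrial Hsp70, was at 139.3, 156.9, 150.2 and 138.8 CPM in control and at 153.5, 160.6, 146.6, 135.4 and 135.8 in DKO. The log2 fold change was 0.00, with an edgeR adjusted p of 0.997. Hspd1 was at 130.1, 129.2, 149.8 and 118.8 CPM in control and at 131.1, 143.3, 104.9, 109.8 and 114.1 in DKO. Its partner Hspe1 was at 48.1, 29.7, 34.6 and 29.95 CPM and at 36.4, 37.8, 26.6, 37.3 and 28.6. The groups overlapped for both, with log2 fold changes of -0.13 and -0.09 and edgeR adjusted p of 0.609 and 0.825. Trap1, the mitochondrial Hsp90, was at 110.5 to 117.0 CPM in control and 102.6 to 120.1 in DKO, a log2 fold change of -0.03 (edgeR adjusted p 0.895). Dnaja3, the mitochondrial Hsp40, had a log2 fold change of 0.10 (edgeR adjusted p 0.615).

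The 8 subunits of TRiC, the ring that folds actin and tubulin, had log2 fold changes of 0.00 to 0.21, and 0 passed in edgeR, DESeq2 or limma-voom. Cct3 had the largest, with an edgeR p of 0.0468 before and 0.304 after adjustment. It was the 1 subunit with an unadjusted p under 0.05, where 16.0% of all tested genes had one. Tcp1, the subunit also called CCT1, was at 195.7, 186.2, 199.6 and 157.1 CPM in control and at 200.4, 201.7, 165.5, 190.7 and 165.2 in DKO. Its means were 184.7 ± 19.2 (SD, n = 4) and 184.7 ± 18.1 (SD, n = 5).

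Many chaperones followed the same order of libraries within a group. Control replicate 4 was the lowest control library and DKO replicate 3 the lowest DKO library for 21 of the 53 tested members (39.6%), against 4.64% of all tested genes. For 13 members (24.5%, against 0.623% of all genes) DKO replicates 1 and 2 were in addition the highest of the DKO libraries. The order was most frequent among TRiC subunits (6 of 8), cochaperones (3 of 5) and cytosolic inducible members (5 of 10), and 0 of the 3 heat shock factors had it. It was noticed after the values were seen, and it carries no test. It means that part of the spread within each group is shared between members, so that they are not independent measures of the DKO cells.

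The median over the inducible class of each gene's log2 CPM, centred on that gene's mean, was -0.24, 0.01, 0.04 and -0.45 in control and 0.32, 0.26, -0.14, 0.15 and 0.07 in DKO. DKO replicate 3 thus lay below control replicates 2 and 3. The cochaperones gave 0.07, -0.07, -0.14 and -0.38 in control and 0.25, 0.31, -0.10, 0.10 and 0.03 in DKO, an overlap as well. The constitutive class did not overlap. It ran from -0.22 to -0.048 in control and from -0.026 to 0.20 in DKO, a narrow gap that was not tested. For the ER class the values ran from -0.10 to 0.11 in control and from -0.08 to 0.03 in DKO.

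**Figure D4:**
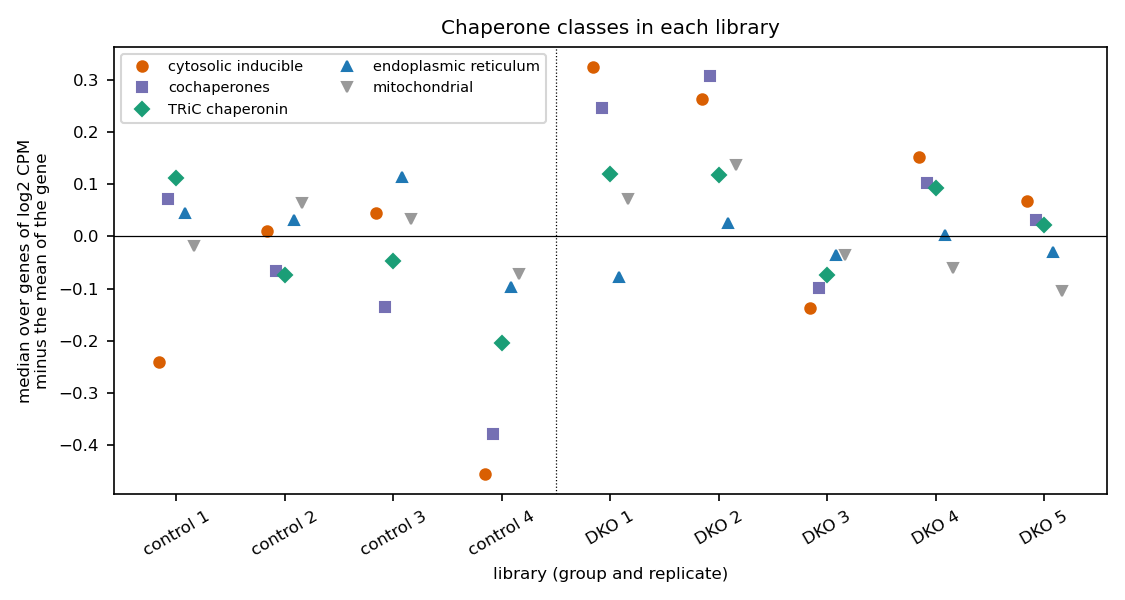
Median over a class of log2 CPM minus the gene's mean (y axis) in each library (x axis), with 1 marker shape per class. The cytosolic inducible, cochaperone, TRiC, ER and mitochondrial classes are shown. The constitutive class, whose values did not overlap between the groups, is not drawn. Control replicate 4 and DKO replicate 3 are low for the inducible class (-0.45 and -0.14) and the cochaperones (-0.38 and -0.10). The ER class stays between -0.10, also in control replicate 4, and 0.11.

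Other folding genes were taken from lists of 91 genes: further cochaperones and small heat shock proteins, prefoldin, the remaining J-domain proteins, and ER and mitochondrial folding factors and proteases. Of the 77 tested, 0 passed in edgeR, 2 in DESeq2 and 3 in limma-voom. In edgeR 6 had an unadjusted p under 0.05 (2 higher, 4 lower). Among all tested genes, 2.83%, 6.96% and 6.68% passed in these methods and 16.0% had such an unadjusted p. Control and DKO libraries had separate ranges in 2 of the 77, and in 8.71% of all genes. The median log2 fold change of the 77 was -0.02. All 6 prefoldin subunits, which hand clients to TRiC, had negative log2 fold changes, where the 8 TRiC subunits were at or above 0.00, and 0 of either passed in edgeR (0 and 1 at an unadjusted p under 0.05). Dnajc15, a J-domain protein of the inner mitochondrial membrane named here after its values were seen, had means of 417.1 CPM in control and 295.7 in DKO without overlap, with a log2 fold change of -0.50 and an edgeR adjusted p of 0.0973. Sil1, a nucleotide exchange factor for Hspa5 named on the same ground, had a log2 fold change of -0.54 and an edgeR adjusted p of 0.0915.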

How the data were processed

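RNA was read from 9 libraries, 4 control and 5 DKO, made with SMART-Seq v4 and Nextera Flex per the labels' protocols. The deposited files hold whole-number counts per gene identifier in an unstranded column and in 2 strand columns. The submitters' processing notes name Trim Galore 0.6.0, STAR 2.7.8a and mm10. Settings and annotation were not given in the sources used here. From the unstranded counts, rows that name no gene were left out, which kept 67.0 to 74.0% of all counts, and 55230 of 55471 identifiers matched GENCODE M21 without version. CPM, TPM over exon lengths, principal components and class medians were computed here.

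Tests used edgeR 4.0.16 (TMM, filterByExpr with a minimum count of 10, robust quasi-likelihood F-test, group only, Benjamini-Hochberg over 14918 genes, threshold 0.05) in R 4.3.3. DESeq2 1.42.0, limma 3.58.1 with voom and quality weights, other scaling, filters and columns, a replicate block and leaving out libraries were alternatives. Summed CPM were compared with exact permutation tests over 126 relabellings, whose smallest p is 0.00794. No 2 libraries of a group agreed within sampling noise. Libraries carry no molecular identifiers, so counts include PCR copies. The biological coefficient of variation was 20.9%.

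Members, classes and gene lists were chosen with earlier results of these data known. Values per library are given for members past the threshold, members whose groups do not overlap, and set representatives of each class. Hspa4l, Stip1 and Fkbp4 were added after their values were seen.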

Additional observations from a re-analysis of the deposited data

Results flagged for a closer look

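In 106 groups of 4 or 5 libraries, 1 for each tested member in control and in DKO, a single library lay far from the rest in 5, by a gap test (Dixon) that chance alone meets in about 1 of 20 groups. Bag1, the Hsp70 nucleotide exchange factor, was at 358.0 CPM in control replicate 1 and at 223.3 to 237.3 in the other control libraries. Dnajc2, a ribosome-associated J-domain protein, was at 123.8 CPM in control replicate 1 beside 88.1 to 90.1, and at 99.8 CPM in DKO replicate 4 beside 88.8 to 91.2. Dnajb12, a J-domain protein of the ER membrane, was at 20.4 CPM in control replicate 4 beside 17.2 to 17.7, and at 17.6 CPM in DKO replicate 3 beside 15.8 to 16.3. None of these 3 genes passed the edgeR threshold between the groups. Of the 5 flags, 2 fell in control replicate 1, which also stood apart on the first principal component.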

How the results depend on the processing

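The number of members past the threshold, 3 in edgeR, was 6 with DESeq2, 1 (Hsf4) without control replicates 1 and 3 together (chosen after seeing the data), and 1 to 3 when leaving out 1 library at a time, where Hsf4 always passed and Hspa4l replaced Hspa2 and Dnaja1 without control replicate 3. The share of all genes moved too, from 2.83% to 6.96%, 3.08% and 1.22 to 4.93%. The cause was not tested, beyond the smaller number of libraries in the last cases. With the replicate block it was 0, with 0.449% of all genes; same-numbered libraries had correlations of deviations between -0.117 and 0.012, so the numbers were not taken as pairs, and Hsf4 then had an edgeR adjusted p of 0.0550. All 8 class medians kept their sign and stayed within 1 SD under the 17 alternatives run for each, the inducible one at 0.19 to 0.41 outside the block. Values near 0 changed sign. Leaving out 1 library gave log2 fold changes of -0.046 to 0.016 for Hspa5, -0.036 to 0.037 for Hspa9, -0.058 to 0.00083 for Trap1, -0.17 to 0.074 for Hspe1 and -0.068 to 0.041 for Tcp1. The same gave 0.078 to 0.19 for Hsf1, 0.15 to 0.32 for Hsf2, 0.21 to 0.40 for Hspa8, -0.20 to -0.062 for Hspd1 and -0.12 to -0.025 for Hsp90b1, all short of the threshold. Hspa9 was at -0.028 with limma-voom, -0.015 with at least 1 CPM in 4 libraries, -0.0035 with summed strand columns and -0.028 without control replicates 1 and 3. Hspe1 was at 0.064 with limma-voom and 0.15 without those controls, and Tcp1 at -0.016 with the stricter filter and -0.0090 with summed strand columns. Of the summed lists, the log2 ratio of means without 1 library was 0.23 to 0.31 for immediate early genes, 0.58 to 0.83 for proliferation genes and -0.61 to -0.53 for myeloid genes, none past the adjusted threshold. Fewer libraries allow only larger p there. It was -0.19 to 0.48 for erythroid and platelet genes and -0.24 to 0.01 for stroma and endothelium. Counts of 3 to 89 limit Hspb1 and Hspa1a.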
